A study of Homo sapiens with 12 samples.

Results

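Antisense long noncoding RNAs are transcripts named for a gene on the opposite DNA strand. They were taken from a table of raw gene counts as every gene whose symbol ends in a hyphen, the letters AS and an optional number. This naming rule gave 234 antisense genes among the 8579 genes of the table. For 113 of them the gene named before the hyphen, the sense gene, was also in the table, which gave 113 pairs with 110 different sense genes. The other 121 antisense genes had no sense gene in the table used here. Libraries came from A375, an established human melanoma cell line with an activating BRAF mutation, kept for 72 hours under one of 4 conditions. SEL201 cells received SEL201 at 2.5 µM, which inhibits MNK1 and MNK2, the kinases that phosphorylate the translation factor eIF4E. OTX015 cells received OTX015 at 50 nM, which inhibits BET bromodomain proteins, readers of acetylated chromatin that promote transcription. COMBO cells received both agents, and UNTREATED cells, whose treatment label is DMSO, the drug solvent, received neither. There were 3 libraries per group from this single cell line, and the series asks what joint inhibition changes in BRAF-mutated melanoma cells.

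The suffix AS describes position and not function. Some antisense RNAs start close to the promoter of their sense gene and run away from it, some overlap its first or last exons, and some lie wholly inside one of its introns. Many are short-lived, because the nuclear exosome, a complex that degrades RNA, removes transcripts that end early. A few are known to act on chromatin or on the RNA of the gene they overlap, but for most no function is established. Only polyadenylated RNA was captured here, so antisense transcripts without a poly(A) tail were not measured.

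An annotation of another genome build (GENCODE v29 on GRCh38) was used here for names and relative positions only. In it 232 of the 234 antisense genes were matched to a unique entry, 16 of them under another symbol. Of these, 163 were typed as antisense, 33 as long intergenic, 29 as processed transcripts and 2 as bidirectional promoter RNAs, while 4 were pseudogenes. The last, NCBP2-AS2, is typed there as protein coding although its symbol meets the naming rule. Overlap with the sense gene at the 5′ ends was the most frequent arrangement, with 92 genes. Overlap at the 3′ ends was found for 45, divergent transcription without overlap for 40, a place inside the sense gene for 34, and a span across the whole sense gene for 14. Another 7 have a sense name without a unique entry in the annotation, as for the HOX clusters. ASMTL-AS1 and RAET1E-AS1 had no unique entry themselves and were not placed. Exons of 150 of the 225 placed genes overlapped exons of the sense gene. The libraries are stranded, but the strand setting of the counting is not given in the sources used here. If strand was ignored, reads from overlapping exons of a pair cannot be told apart. In the pairs with exon overlap, a median of 8.45% of the antisense exon bases lay in that overlap, and the highest share was 57.7%.

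Counts summed over the table to between 15146071 and 24111541 per library, and these are totals over the genes used here, not the sequencing depth. Libraries are named here by group and number, as in COMBO 1. Antisense genes took between 0.849% and 0.867% of all counts in the UNTREATED libraries and between 0.847% and 0.860% with SEL201. The range was 0.827% to 0.843% with OTX015 alone and 0.822% to 0.842% with both agents. Every OTX015 and COMBO library lay below every UNTREATED library in this share, which sums all antisense counts, and the difference was not tested. Mean counts of the antisense genes ran from 92.8 to 5863 with a median of 341, against a median of 1559 over all genes, and the lowest count of any antisense gene in any library was 49. All 234 passed the low-count filter. Of 11 melanocyte lineage markers 7 were in the table. Their means in UNTREATED ran from 4.19 CPM for MLANA and 4.87 for PMEL to 443 for GPNMB, with MITF at 173. None of 7 markers of blood, endothelial, epithelial, fibroblast or liver cells was in it. Any filter by the authors is not known, so absence from the table does not show that a gene was not expressed. In COMBO against UNTREATED, 2 of the 7 melanocyte markers rose and 3 fell. The 3 measured markers of an invasive melanoma state, NGFR, DKK1 and NUAK1, fell, while AXL and WNT5A of that list were not in the table. At the same threshold, given below, 28.3% of all genes rose and 29.6% fell. What part these marker changes have in the antisense results was not tested.

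A smaller share of the antisense genes than of all genes was called in each comparison. CPM values are counts scaled to a common library total by TMM, a log2 change of 1 is a doubling, log2 changes are given ± their standard error (SE), and a gene is called when its edgeR quasi-likelihood p, adjusted over all 8579 genes, is under 0.05. With both agents 97 of 234 antisense genes were called, 42 higher and 55 lower, a share of 41.5% against 57.8% of all genes (28.3% higher, 29.6% lower). OTX015 alone called 30 higher and 51 lower, 34.6% against 48.0% (23.3% higher, 24.7% lower). SEL201 alone called 5 higher and 12 lower, 7.26% against 21.2% (10.1% higher, 11.1% lower). These are bulk libraries, so fewer cells with a transcript and less of it per cell cannot be told apart. Median log2 changes relative to the TMM scaling were 0.003 for the antisense genes and -0.0003 for all genes with SEL201, -0.019 and 0.002 with OTX015, and -0.001 and 0.002 with both. Genes that rose and fell both enter these medians.

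**Figure D1:**
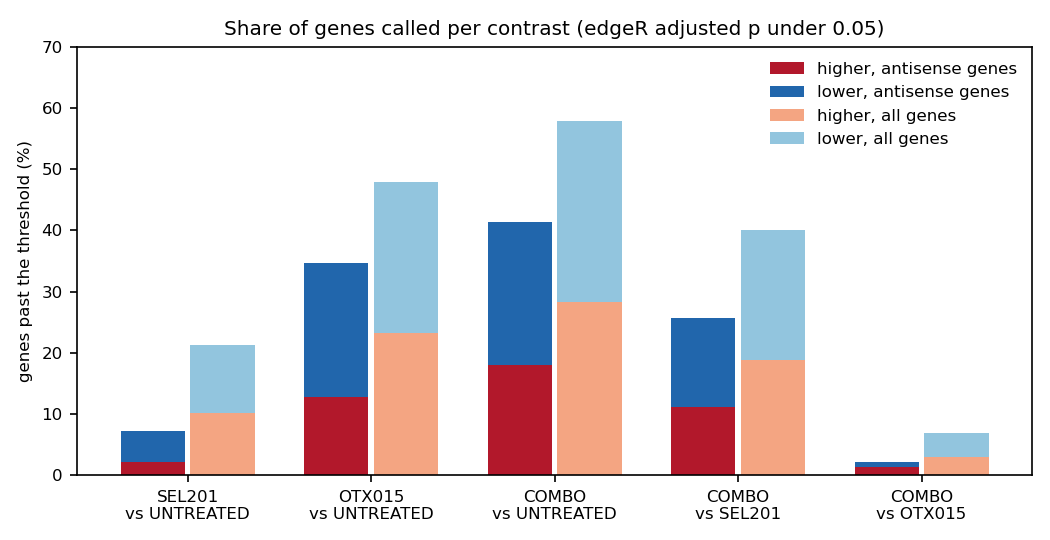
Bars give the percentage of the 234 antisense genes (dark) and of all 8579 genes (light) called at an edgeR adjusted p under 0.05 in each comparison, with higher genes (red) stacked under lower genes (blue). In each of the 5 comparisons the antisense bar is the shorter one, from 41.5% against 57.8% in COMBO against UNTREATED to 2.14% against 6.91% in COMBO against OTX015.

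Antisense genes had lower counts than the table as a whole, so shares were also set side by side within ranges of mean count, for COMBO against UNTREATED. Under 250 counts 36.0% of 86 antisense genes and 43.4% of 1555 genes were called. From 250 to 1000 counts the shares were 44.7% of 103 and 54.8% of 1962, and above 1000 counts 44.4% of 45 and 63.4% of 5062. Within each of the 3 ranges the antisense share was the lower one. Counts were not matched within a range, and what part count level has in the lower share was not tested. The shares in other groups of noncoding genes were 44.8% of 134 for long intergenic genes with LINC symbols (23 higher, 37 lower) and 53.8% of 26 for genes with host-gene symbols (4 higher, 10 lower), 1 of which, PGGHG, is a protein-coding gene caught by the symbol rule. None of these differences between groups of genes was tested.

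With both agents the largest falls were those of PAX8-AS1, C1RL-AS1, ANO1-AS2 and SUCLG2-AS1. Genes named for their change were picked from these same libraries, so ranges that do not overlap are no further evidence for it. PAX8-AS1 lies opposite PAX8, a paired-box transcription factor of thyroid and kidney development, and overlaps its 3′ end. It had 106, 87.2 and 141 CPM in UNTREATED, 65.4, 50.8 and 88.3 with SEL201, 51.8, 33.2 and 63.8 with OTX015 and 37, 20.2 and 42.1 with both. The 3 COMBO libraries lay below all 3 UNTREATED ones, with a log2 change of -1.76 ± 0.28 (edgeR adjusted p = 1.1e-04). C1RL-AS1, opposite the complement-related protease gene C1RL and overlapping at the 5′ ends, had 39.7, 34.6 and 43 CPM in UNTREATED, 25.2, 25.1 and 25.4 with SEL201, 17.5, 13 and 18 with OTX015 and 12.5, 10.2 and 14 with both. Every library with an agent lay below every UNTREATED library, and the COMBO change was -1.68 ± 0.14 (edgeR adjusted p = 1.6e-07). ANO1-AS2 runs away from ANO1, which encodes a calcium-activated chloride channel, and had 28.5, 27.5 and 37 CPM in UNTREATED, 19.7, 17.2 and 21.1 with SEL201, 13.5, 10.5 and 13.8 with OTX015 and 10.1, 8.78 and 11 with both. Again no treated library reached the untreated range, and the COMBO change was -1.64 ± 0.15 (edgeR adjusted p = 3.9e-07). SUCLG2-AS1 starts 83 bases from the start of SUCLG2, a subunit of the mitochondrial enzyme succinate-CoA ligase, in the opposite direction. Its levels were 29.2, 26.1 and 33.5 CPM in UNTREATED, 18.7, 15.7 and 23.5 with SEL201, 12, 11.3 and 16.2 with OTX015 and 10.8, 6.93 and 12 with both. UNTREATED and COMBO did not overlap, and the log2 change was -1.59 ± 0.20 (edgeR adjusted p = 1.2e-05).

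ZFHX4-AS1, H1FX-AS1, WT1-AS and NR2F1-AS1 made up the rest of the 8 largest falls, and GATA2-AS1 came next. ZFHX4-AS1, opposite a zinc finger homeobox gene, had 21.5, 15.8 and 18.2 CPM in UNTREATED, 15.1, 14.5 and 16.3 with SEL201, 9.87, 9.94 and 10.5 with OTX015 and 7.80, 6.57 and 7.48 with both. Its OTX015 and COMBO libraries lay below the UNTREATED ones without overlap, and the COMBO change was -1.34 ± 0.13 (edgeR adjusted p = 7.8e-07). WT1-AS starts 112 bases from the start of WT1, the Wilms tumour transcription factor, and had 39.1, 34.8 and 42 CPM in UNTREATED, 29.5, 29.4 and 34.8 with SEL201, 23.4, 21.8 and 25.4 with OTX015 and 17, 16.8 and 21.2 with both. All COMBO values stood below all UNTREATED values (-1.08, SE 0.11, edgeR adjusted p = 1.8e-06). NR2F1-AS1, opposite an orphan nuclear receptor gene, had 15.3, 16.6 and 11.7 CPM in UNTREATED, 8.41, 11.8 and 9.33 with SEL201, 9.82, 10.3 and 8.03 with OTX015 and 7.41, 7.35 and 7.81 with both. It fell, with a log2 change of -0.95 ± 0.16 (edgeR adjusted p = 1.8e-04), and its COMBO libraries again did not overlap the UNTREATED ones. GATA2-AS1, opposite a transcription factor of blood and endothelial development, had 41.5, 37.5 and 41.8 CPM in UNTREATED and 22.9, 19.4 and 23 in COMBO and changed by -0.89 ± 0.13 (edgeR adjusted p = 3.4e-05). H1FX-AS1, opposite the gene of linker histone H1.X, had 9.78, 9.75 and 10.2 CPM in UNTREATED, 7.57, 7.46 and 7.50 with SEL201, 4.59, 5.15 and 6.25 with OTX015 and 3.45, 4.16 and 5.09 with both. The groups did not overlap between UNTREATED and COMBO, and the change was -1.24 ± 0.16 (edgeR adjusted p = 1.1e-05).

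The largest rises were smaller than the largest falls, and 1 antisense gene had a log2 change above 1 while 7 had one below -1. FGF13-AS1, inside the gene of FGF13, an intracellular growth factor homolog that binds sodium channels, had 5.66, 4.65 and 6.65 CPM in UNTREATED, 8.49, 6.01 and 7.99 with SEL201, 11.6, 10.2 and 11.6 with OTX015 and 13.6, 10.6 and 14.4 with both. All OTX015 and COMBO libraries lay above all UNTREATED ones, and the COMBO change was 1.19 ± 0.17 (edgeR adjusted p = 4.2e-05). PRKAR2A-AS1, opposite a regulatory subunit gene of protein kinase A, had 4.76, 7.30 and 5.41 CPM in UNTREATED, 7.22, 9.16 and 7.01 with SEL201, 12.1, 10.8 and 10.2 with OTX015 and 10.9, 9.80 and 12.2 with both. Its OTX015 and COMBO libraries all lay above UNTREATED, with 0.90 ± 0.17 (edgeR adjusted p = 4.0e-04) for COMBO. ASB16-AS1, opposite an ankyrin repeat and SOCS box gene, had 25.3, 26.2 and 28.6 CPM in UNTREATED, 29, 28.8 and 29.8 with SEL201, 34.8, 37.5 and 36.1 with OTX015 and 39, 41.1 and 47.4 with both. The ranges of UNTREATED and COMBO did not overlap (0.67, SE 0.09, edgeR adjusted p = 1.2e-05). ATP2B1-AS1, opposite a plasma membrane calcium pump gene, had 5.19, 3.94 and 4.56 CPM in UNTREATED, 5.19, 7.31 and 7.26 with SEL201, 9.13, 9.21 and 8.03 with OTX015 and 7.11, 7.44 and 7.21 with both. OTX015 alone gave its highest libraries, with a log2 change of 0.95 against 0.67 in COMBO (edgeR adjusted p = 2.4e-04 and 0.0027).

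STARD4-AS1, opposite STARD4, whose protein carries cholesterol between membranes, had 15.4, 18.2 and 21.5 CPM in UNTREATED, 15.8, 16.1 and 15.1 with SEL201, 17.9, 20.4 and 18.5 with OTX015 and 27.2, 27.2 and 33.3 with both. Only the COMBO libraries stood above the UNTREATED range, and the log2 changes were -0.23 with SEL201, 0.05 with OTX015 and 0.67 ± 0.12 (edgeR adjusted p = 3.2e-04) with both. SLCO4A1-AS1, inside a locus of an organic anion transporter, had 32.3, 29.7 and 36.9 CPM in UNTREATED and 45.9, 48.7 and 58 in COMBO and rose by 0.63 ± 0.12 (edgeR adjusted p = 4.3e-04). OSER1-AS1, which runs away from a gene responsive to oxidative stress, had 20.8, 16 and 20.7 CPM in UNTREATED and 29.2, 27.1 and 31.7 in COMBO and rose by 0.61 ± 0.11 (edgeR adjusted p = 1.9e-04). PARD6G-AS1, opposite a cell polarity gene, had 10.7, 12.1 and 10.1 CPM in UNTREATED and 15.9, 17.7 and 14.8 in COMBO and rose by 0.56 ± 0.11 (edgeR adjusted p = 6.3e-04). In these 3 genes, too, each COMBO library lay above each UNTREATED library.

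**Figure D2:**
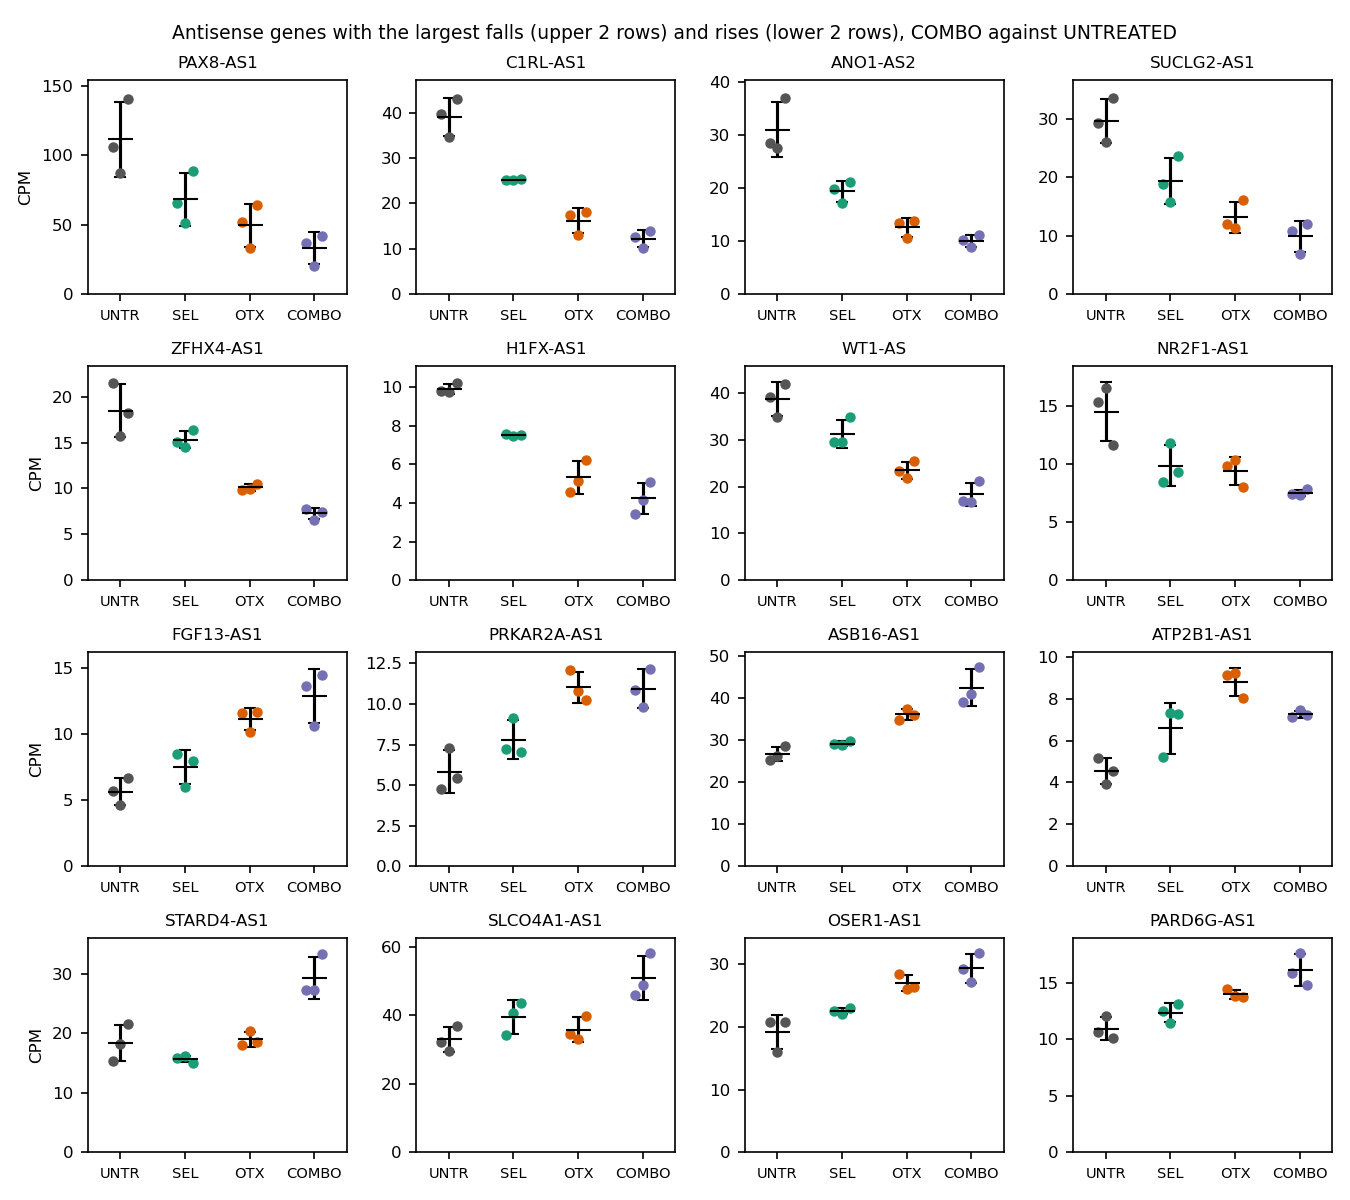
Each panel plots CPM (vertical axis, from 0) of 1 antisense gene in the 3 libraries of UNTREATED (UNTR), SEL201 (SEL), OTX015 (OTX) and COMBO, with a bar at the mean and whiskers of 1 SD. The 8 panels in the upper rows hold the largest falls in COMBO, and the 8 in the lower rows the largest rises. The 3 COMBO libraries stand apart from the 3 UNTREATED ones in these panels. The genes were chosen by the change between those same libraries, so this separation is no further evidence. In STARD4-AS1 the SEL201 and OTX015 libraries overlap the UNTREATED ones.

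The start regions of 6 of these genes are printed because the genes differ in direction and in their relation to the sense gene. Each window runs from 250 bases before to 50 bases after the start site in RefSeq (GRCh38.p14), 5′ to 3′ on the antisense gene's own strand. Of the 234 genes, 156 matched that table by symbol, and windows that reached into a coding exon were not used. PAX8-AS1 (chr2:113236019-113236318, plus strand) and WT1-AS (chr11:32435789-32436088, plus strand) fell, and each has a further annotated start that is not shown. GATA2-AS1 (chr3:128488953-128489252, plus strand) fell together with its sense gene. FGF13-AS1 (chrX:138711857-138712156, plus strand) had the largest rise. STARD4-AS1 (chr5:111511976-111512275, plus strand) and FAM222A-AS1 (chr12:109773438-109773737, minus strand) went against their sense genes. Capitals mark matches, on either strand, to 6 strings of letters that do not contain one another. The first is the GC box GGGCGG. Another is the CCAAT box, which reads ATTGG when it lies on the opposite strand. The E-box searched for was CACGTG. For the cyclic AMP response element the string was TGACGTCA. The AP-1 site was written TGANTCA, and the TATA box TATAAA.
PAX8-AS1: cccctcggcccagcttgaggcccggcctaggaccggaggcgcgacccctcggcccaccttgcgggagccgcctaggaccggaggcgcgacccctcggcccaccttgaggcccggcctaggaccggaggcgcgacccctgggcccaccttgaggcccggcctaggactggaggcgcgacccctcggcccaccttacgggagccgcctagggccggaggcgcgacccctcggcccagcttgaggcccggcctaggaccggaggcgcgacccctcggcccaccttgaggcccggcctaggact
WT1-AS: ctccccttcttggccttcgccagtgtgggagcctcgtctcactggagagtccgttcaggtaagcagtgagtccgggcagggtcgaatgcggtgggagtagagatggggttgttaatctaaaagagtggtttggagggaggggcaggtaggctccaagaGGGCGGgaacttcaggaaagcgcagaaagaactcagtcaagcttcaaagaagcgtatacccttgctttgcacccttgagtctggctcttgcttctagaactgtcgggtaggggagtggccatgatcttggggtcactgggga
GATA2-AS1: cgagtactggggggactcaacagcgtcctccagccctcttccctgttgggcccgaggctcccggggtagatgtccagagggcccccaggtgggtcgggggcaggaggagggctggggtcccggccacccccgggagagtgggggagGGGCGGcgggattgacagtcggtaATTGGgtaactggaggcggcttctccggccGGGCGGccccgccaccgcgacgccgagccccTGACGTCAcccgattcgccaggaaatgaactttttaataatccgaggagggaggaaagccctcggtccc
FGF13-AS1: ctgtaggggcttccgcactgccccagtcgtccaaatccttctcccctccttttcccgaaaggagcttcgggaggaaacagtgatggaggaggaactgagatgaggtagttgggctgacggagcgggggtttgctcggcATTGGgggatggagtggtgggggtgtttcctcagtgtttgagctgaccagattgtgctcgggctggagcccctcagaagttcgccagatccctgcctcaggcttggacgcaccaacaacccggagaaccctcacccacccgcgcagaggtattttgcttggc
STARD4-AS1: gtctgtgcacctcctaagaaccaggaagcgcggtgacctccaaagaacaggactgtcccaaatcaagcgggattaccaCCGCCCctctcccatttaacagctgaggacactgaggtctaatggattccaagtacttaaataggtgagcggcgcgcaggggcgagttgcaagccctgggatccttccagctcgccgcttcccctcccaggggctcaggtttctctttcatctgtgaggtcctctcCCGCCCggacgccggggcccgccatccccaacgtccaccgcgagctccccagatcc
FAM222A-AS1: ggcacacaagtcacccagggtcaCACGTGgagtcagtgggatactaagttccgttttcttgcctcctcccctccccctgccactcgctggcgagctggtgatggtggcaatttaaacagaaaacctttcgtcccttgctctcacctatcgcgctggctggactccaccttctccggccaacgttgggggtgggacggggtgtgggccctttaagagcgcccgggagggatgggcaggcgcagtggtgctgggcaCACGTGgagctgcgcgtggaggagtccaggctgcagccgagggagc
No string matched in the PAX8-AS1 window. WT1-AS held 1 GGGCGG and STARD4-AS1 held 2 on the opposite strand, a string found in 45.0% of all 34961 windows. GATA2-AS1 held 2 GGGCGG, 1 CCAAT and 1 TGACGTCA, and the last occurs in 1.85% of windows. FGF13-AS1 held 1 CCAAT, which occurs in 34.6%. FAM222A-AS1 held 2 CACGTG, a string in 7.27% of windows. TGANTCA and TATAAA, in 7.68% and 11.5% of windows, were in none of the 6. A match is a string of letters and not a bound site.

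HOX clusters encode the transcription factors that set position along the body axis, and the 5 antisense genes of these clusters in the table were all called lower in COMBO, beside 29.6% of all genes and 55 of the 234 antisense genes. They were grouped after their values were seen, so nothing is read from that count, and 2 of the 5 calls were lost when single libraries were left out. HOXC-AS2 went from 13 ± 1.91 CPM in UNTREATED to 7.93 ± 1.58 in COMBO (mean ± SD, n = 3 each; -0.72, edgeR adjusted p = 0.0016). HOXA-AS2 had 20.7, 20.4 and 18.6 CPM in UNTREATED and 11.4, 10.9 and 16 in COMBO and fell, with a log2 change of -0.65 ± 0.13 (edgeR adjusted p = 6.3e-04). HOXC13-AS had 8.19, 9.62 and 8.34 CPM in UNTREATED and 5.90, 5.13 and 5.62 in COMBO and fell, with a log2 change of -0.65 ± 0.16 (edgeR adjusted p = 0.0033), together with HOXC13 at -0.25 (edgeR adjusted p = 0.0025). HOXB-AS3 had 11.2, 13.4 and 16.8 CPM in UNTREATED and 8.27, 6.75 and 11.4 in COMBO, and its groups overlapped although it passed (-0.66 ± 0.23, edgeR adjusted p = 0.022). Its call was lost without COMBO 1 or 2 or UNTREATED 3 (edgeR adjusted p = 0.069 to 0.1). HOXA-AS3 had 6.99, 8.21 and 6.45 CPM in UNTREATED and 6.29, 5.09 and 3.24 in COMBO and changed by -0.54 ± 0.19 (edgeR adjusted p = 0.027), a call lost without COMBO 2 or 3 or UNTREATED 2 (edgeR adjusted p = 0.053 to 0.11). Without COMBO 3 its log2 change was -0.34.

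Several antisense genes that have been studied in cancers were looked up whatever their p. FOXD2-AS1, divergent from a forkhead gene, had 40.6, 42.7 and 41.9 CPM in UNTREATED, 37.4, 41.3 and 39.6 with SEL201, 36.2, 35.6 and 37 with OTX015 and 30.3, 31 and 28.6 with both. It fell in COMBO, with a log2 change of -0.48 ± 0.07 (edgeR adjusted p = 4.4e-05). FOXD3-AS1, opposite a neural crest forkhead gene, had 16.2, 14 and 13 CPM in UNTREATED and 19.5, 17.6 and 16.6 in COMBO and rose by 0.31 ± 0.11 (edgeR adjusted p = 0.029). That call was lost without COMBO 1 or 2 or UNTREATED 2 or 3 (edgeR adjusted p = 0.0504 to 0.12). PSMA3-AS1 had 133, 144 and 148 CPM in UNTREATED and 159.5, 175 and 185 in COMBO and rose by 0.29 ± 0.08 (edgeR adjusted p = 0.0058). DLGAP1-AS1 had 48.4, 38.3 and 44.7 CPM in UNTREATED and 58.7, 46.4 and 54.8 in COMBO, and although its groups overlapped it was called (0.28 ± 0.10, edgeR adjusted p = 0.029). It lost the call without COMBO 1 or 3 or UNTREATED 2 (edgeR adjusted p = 0.071 to 0.14). ZEB1-AS1, opposite a regulator of the epithelial to mesenchymal transition, was not called, with 10.0, 11.7 and 14.3 CPM in UNTREATED and 8.96, 11.3 and 8.53 in COMBO and a change of -0.32 ± 0.15 (edgeR adjusted p = 0.088). It passed without COMBO 2 or UNTREATED 1 (edgeR adjusted p = 0.03 to 0.034). LBX2-AS1 (0.09, edgeR adjusted p = 0.35) and MCM3AP-AS1 (-0.08, edgeR adjusted p = 0.59) were not called either. Fits of the compared groups only also ended the calls of FOXD3-AS1, DLGAP1-AS1, HOXA-AS3 and PSMG3-AS1 (edgeR adjusted p = 0.052 to 0.064), and so did leaving out the 4 libraries numbered 3 (edgeR adjusted p = 0.062 to 0.14).

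The other antisense genes called in COMBO against UNTREATED are given by their position. Those lower with overlap at the 5′ ends were CYP1B1-AS1, RNASEH1-AS1, G2E3-AS1, PPP1R26-AS1, ZNF436-AS1, NNT-AS1, PRR34-AS1, STX18-AS1, VIM-AS1, ADIRF-AS1, FBXL19-AS1, PRRT3-AS1, TMEM147-AS1, SERTAD4-AS1, LENG8-AS1, SLC16A1-AS1 and MAGI2-AS3, with log2 changes of -0.83 to -0.19. Lower ones with overlap at the 3′ ends were TM4SF19-AS1, FAM222A-AS1, HPN-AS1, CCDC18-AS1, TNFRSF10A-AS1, SLC25A25-AS1, SBF2-AS1 and ZFPM2-AS1 (-0.79 to -0.31). Divergent genes that fell were USP2-AS1, SH3RF3-AS1, PRKCQ-AS1 and TRIM52-AS1 (-0.71 to -0.31). Inside the sense gene, TRHDE-AS1, SLC9A3-AS1, FOXN3-AS1, ELFN1-AS1, AGAP2-AS1, DCST1-AS1 and MKLN1-AS fell (-0.83 to -0.31). Among genes spanning the sense gene, MSC-AS1, MZF1-AS1 and NUTM2A-AS1 fell (-0.68 to -0.14), and RPARP-AS1, whose sense name was not matched, changed by -0.80. Rises with overlap at the 5′ ends were those of RBM15-AS1, A1BG-AS1, ARHGAP5-AS1, CCNT2-AS1, OSGEPL1-AS1, HMGN3-AS1, EXOC3-AS1, NDUFA6-AS1, PSMG3-AS1, STARD7-AS1, ZBTB11-AS1, ZNF213-AS1, PTOV1-AS1 and WAC-AS1 (0.19 to 0.53). With overlap at the 3′ ends, NOP14-AS1, SVIL-AS1, TTC28-AS1, CCDC183-AS1 and NIFK-AS1 rose (0.21 to 0.53). Divergent genes that rose were NUP50-AS1, MEOX2-AS1, FLVCR1-AS1, TMCC1-AS1 and OTUD6B-AS1 (0.17 to 0.47). Inside the sense gene, DLGAP1-AS2, CIRBP-AS1 and TSPEAR-AS1 rose (0.46 to 0.54). The remaining rises were CKMT2-AS1, ZNF433-AS1, JHDM1D-AS1 and RAET1E-AS1 (0.23 to 0.47). Leaving out each of the 12 libraries in turn kept 26 of the 42 rises and 40 of the 55 falls in every fit.

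The 137 antisense genes that were not called had log2 changes between -0.36 and 0.47. With overlap at the 5′ ends they included ACVR2B-AS1, ADNP-AS1, ASH1L-AS1, ATP6V0E2-AS1, CARD8-AS1, CCDC144NL-AS1, CD27-AS1, CTBP1-AS2, GABPB1-AS1, GNAS-AS1, GNG12-AS1, KMT2E-AS1, KTN1-AS1, LLPH-AS1, LPP-AS2, MAPKAPK5-AS1, MATN1-AS1, MMP25-AS1, NFYC-AS1, NRSN2-AS1, PDCD4-AS1, POT1-AS1, PPP3CB-AS1, PRR7-AS1, RASSF8-AS1, RBM26-AS1, RNF144A-AS1, RUSC1-AS1, SDCBP2-AS1, SGMS1-AS1, SPAG5-AS1, SPRY4-AS1, SRP54-AS1, SRRM2-AS1, TAF1A-AS1, TAPT1-AS1, THAP7-AS1, THAP9-AS1, TMEM161B-AS1, TMPO-AS1, TPT1-AS1, WDFY3-AS2, ZBED3-AS1, ZBED5-AS1 and ZNF561-AS1, besides LBX2-AS1 and ZEB1-AS1 above (-0.32 to 0.41). With overlap at the 3′ ends they included ARRDC1-AS1, BAALC-AS1, DGUOK-AS1, ELOA-AS1, ENTPD1-AS1, F11-AS1, IQCH-AS1, KCTD21-AS1, KDM4A-AS1, KIF9-AS1, MCM3AP-AS1, MIF-AS1, PAXBP1-AS1, PAXIP1-AS2, PINK1-AS, PITPNA-AS1, PSMD6-AS2, PTPRG-AS1, PXN-AS1, SH3BP5-AS1, SP2-AS1, TMEM44-AS1, TP73-AS1, TRAF3IP2-AS1, VASH1-AS1, ZNF337-AS1 and ZNF571-AS1 (-0.32 to 0.20). The divergent ones included BAIAP2-AS1, BOLA3-AS1, CAPN10-AS1, COX10-AS1, DNAJC3-AS1, EIF3J-AS1, MAFG-AS1, NCBP2-AS2, NCK1-AS1, PAXIP1-AS1, RAB30-AS1, RASAL2-AS1, RFX3-AS1, RHPN1-AS1, RNF139-AS1, SCAMP1-AS1, SRP14-AS1, SSSCA1-AS1, TRAM2-AS1, UBA6-AS1, UBAC2-AS1, UBL7-AS1, URB1-AS1, USP27X-AS1, USP46-AS1 and ZNF674-AS1 (-0.24 to 0.34). Inside the sense gene lay ATP2A1-AS1, EMC3-AS1, EPB41L4A-AS1, FGF14-AS2, KANSL1-AS1, MCF2L-AS1, MELTF-AS1, PIK3CD-AS2, PITRM1-AS1, POLH-AS1, PRKCZ-AS1, PTOV1-AS2, RARA-AS1, RGMB-AS1, TBC1D8-AS1, TRAPPC12-AS1, TSPEAR-AS2, VPS9D1-AS1, WNT5A-AS1, WWTR1-AS1 and ZNF529-AS1 (-0.36 to 0.41). Spanning the sense gene were ALOX12-AS1, DHRS4-AS1, ENTPD3-AS1, FLG-AS1, NUTM2B-AS1, PCBP1-AS1, TBX2-AS1, THUMPD3-AS1 and ZSCAN16-AS1 (-0.15 to 0.28). Others were ZNF503-AS2 (0.09) and ASMTL-AS1 (0.47), the highest change without a call. A change without a call is not shown to be absent at 3 libraries per group.

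The share called was also taken by position against the sense gene. In COMBO against UNTREATED it was 45.7% of the 92 genes with overlap at the 5′ ends (18 higher, 24 lower) and 37.8% of the 45 with overlap at the 3′ ends (8 and 9). Of the 40 divergent genes 32.5% were called (6 and 7), of the 34 inside the sense gene 38.2% (6 and 7), and of the 14 spanning it 35.7% (2 and 3). Genes with exon overlap were called in 42.7% of 150 cases and those without in 34.7% of 75. No class reached the 57.8% of all genes, and the differences among classes were not tested.

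The 110 sense genes themselves were called about as often as all genes, 58.2% against 57.8% in COMBO against UNTREATED (31 higher, 33 lower). Where both genes of a pair were called, the directions were mostly the same. Both were called in 33 of 113 pairs, in 29 of them in the same direction and in 4 in opposite directions. In 16 pairs the antisense gene alone was called, in 34 the sense gene alone, and in 30 neither. Signs were the same in 74 of 113 pairs, and the log2 changes had a Pearson r of 0.49 across pairs. That correlation is a description over 113 pairs that share the 12 libraries, and 3 sense genes enter with 2 antisense genes each, so no p is given. With the replicate number as a block in the fit (the replicate block), 9 pairs were called in opposite directions. That fit called 53.4% of the antisense genes and 67.7% of all genes in COMBO against UNTREATED (33.5% higher, 34.2% lower).

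**Figure D3:**
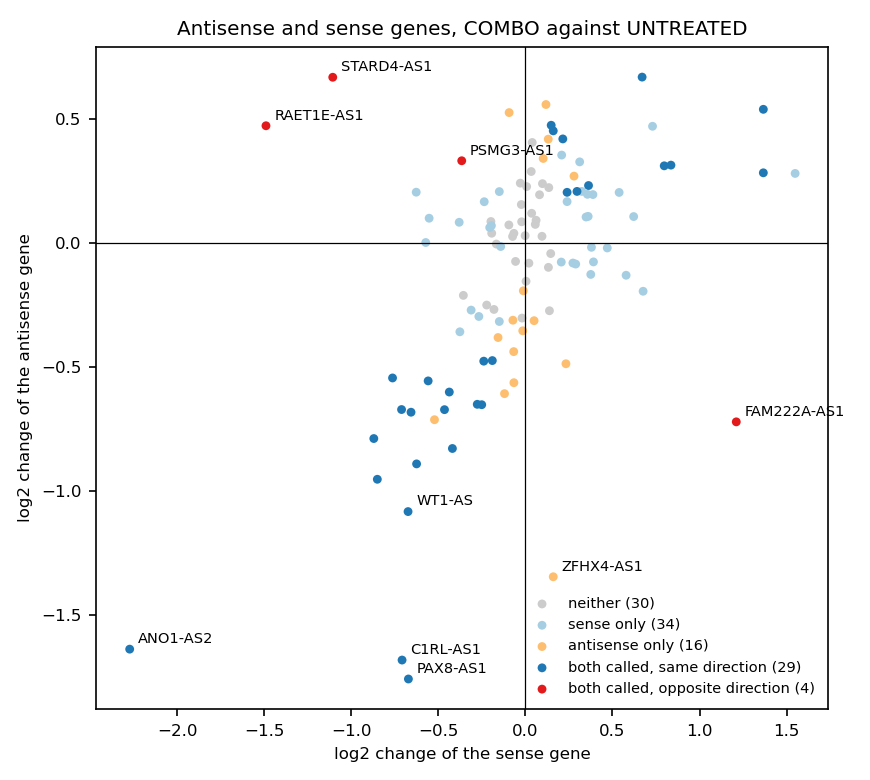
Each of the 113 points is a pair, placed by the log2 change of the sense gene (horizontal axis) and of the antisense gene (vertical axis) in COMBO against UNTREATED, and coloured by which of them was called, with the number of pairs in the key. The 29 pairs called in the same direction (dark blue) lie at the lower left and upper right, and the 4 called in opposite directions (red) at the upper left and lower right.

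Among the pairs that fell together, ANO1 had 276, 282 and 383 CPM in UNTREATED, 170.4, 154 and 202 with SEL201, 78, 71.1 and 107 with OTX015 and 58.2, 56.2 and 81.4 with both, a COMBO change of -2.27 ± 0.18 (edgeR adjusted p = 1.1e-07) beside the -1.64 of ANO1-AS2. Both fell in each treated group without overlap with UNTREATED. PAX8 had 42.4, 42.5 and 47.1 CPM in UNTREATED and 25.4, 24.3 and 33.5 in COMBO and fell, with a log2 change of -0.67 ± 0.13 (edgeR adjusted p = 4.3e-04), beside -1.76 for PAX8-AS1. The log2 ratio of antisense to sense counts for this pair was 1.31 ± 0.27 in UNTREATED and 0.20 ± 0.42 in COMBO (mean ± SD, n = 3 each). C1RL had 38.6, 45.6 and 37.5 CPM in UNTREATED and 24.6, 27.1 and 22.7 in COMBO (-0.71 ± 0.14, edgeR adjusted p = 4.8e-04), beside -1.68 for C1RL-AS1. WT1 had 227, 211 and 232 CPM in UNTREATED and 129, 145 and 146 in COMBO and fell, with a log2 change of -0.67 ± 0.06 (edgeR adjusted p = 1.8e-07). NR2F1 changed by -0.85 (edgeR adjusted p = 2.5e-04) and GATA2 by -0.62 (edgeR adjusted p = 6.4e-07). CYP1B1, a cytochrome P450 of steroid and xenobiotic metabolism, fell, with a log2 change of -0.42 ± 0.12 (edgeR adjusted p = 0.0062) beside -0.83 for CYP1B1-AS1. TM4SF19, a tetraspanning membrane protein gene, fell, with a log2 change of -0.87 ± 0.17 (edgeR adjusted p = 6.5e-04) beside -0.79 for TM4SF19-AS1. Whether antisense and sense changes differed within a pair was not tested. Among the pairs that rose together, ASB16 had 5.19, 6.89 and 6.80 CPM in UNTREATED and 9.52, 9.85 and 10.7 in COMBO and rose by 0.67 ± 0.19 (edgeR adjusted p = 0.0072), and 31.1% of the ASB16-AS1 exon bases overlap exons of ASB16. DLGAP1, a postsynaptic scaffold gene, rose by 1.37 ± 0.18 (edgeR adjusted p = 2.0e-05), with DLGAP1-AS1 at 0.28 and DLGAP1-AS2 at 0.54.

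The remaining pairs called in the same direction were SH3RF3 (-0.71 for the sense gene and -0.67 for the antisense gene), AGAP2 (-0.76 and -0.54), MSC (-0.66 and -0.68) and TNFRSF10A (-0.56 and -0.56), which fell. Of the antisense exon bases, 57.7% overlap sense exons for AGAP2-AS1, 35.2% for TNFRSF10A-AS1, 6.6% for MSC-AS1 and 0% for SH3RF3-AS1. If strand was ignored in the counting, reads from such overlaps cannot be assigned to either gene. TNFRSF10A encodes a death receptor for TRAIL, and MSC the repressor musculin. HPN (-0.44 and -0.60), FOXN3 (-0.46 and -0.67), ELFN1 (-0.28 and -0.65), HOXC13, FOXD2 (-0.24 and -0.48) and ZNF436 (-0.19 and -0.47) fell too. TTC28 (0.84 and 0.31), FOXD3 (0.80 and 0.31), ZNF433 (0.36 and 0.23) and ZNF213 (0.30 and 0.21) rose. So did PTOV1 (0.24 and 0.20), TMCC1 (0.21 and 0.42), OSGEPL1 (0.16 and 0.45) and CCNT2 (0.15 and 0.47), a cyclin of the elongation factor P-TEFb.

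Opposite directions were called for STARD4, FAM222A, RAET1E and PSMG3. STARD4 had 120.3, 129 and 95.3 CPM in UNTREATED, 65.6, 71 and 46.2 with SEL201, 78.3, 85.5 and 62 with OTX015 and 55, 59.1 and 45.6 with both. It fell in COMBO, with a log2 change of -1.11 ± 0.16 (edgeR adjusted p = 4.1e-05), whereas STARD4-AS1, which starts 364 bases away, rose by 0.67. The log2 ratio of STARD4-AS1 to STARD4 counts was -2.65 ± 0.44 in UNTREATED, -1.93 ± 0.28 with SEL201, -1.98 ± 0.21 with OTX015 and -0.86 ± 0.36 in COMBO. FAM222A had 142, 129 and 156 CPM in UNTREATED, 189, 203 and 213 with SEL201, 278, 255 and 283 with OTX015 and 302, 319 and 369 with both, a rise in every treated group (1.21 ± 0.08, edgeR adjusted p = 1.8e-08 in COMBO). FAM222A-AS1 had 10.3, 11.2 and 12.4 CPM in UNTREATED, 9.20, 7.71 and 8.29 with SEL201, 7.70, 6.11 and 7.01 with OTX015 and 6.89, 6.84 and 6.75 with both. It fell in COMBO, with a log2 change of -0.72 ± 0.13 (edgeR adjusted p = 2.9e-04). The 2 transcripts overlap at the 3′ ends, and none of the 3 treated groups overlapped UNTREATED for either.

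RAET1E, a ligand of the immune receptor NKG2D, had 32.7, 33.7 and 26.3 CPM in UNTREATED, 23.6, 22.6 and 18.5 with SEL201, 18.9, 15.5 and 13.1 with OTX015 and 10.9, 12.6 and 9.46 with both. It fell, with a log2 change of -1.49 ± 0.16 (edgeR adjusted p = 1.6e-06). RAET1E-AS1 had 16.1, 14.5 and 15.8 CPM in UNTREATED, 17.8, 16.8 and 25.1 with SEL201, 21.9, 24.9 and 25.6 with OTX015 and 21.5, 20.6 and 22.3 with both. It rose by 0.47 ± 0.13 (edgeR adjusted p = 0.0075). Each COMBO library lay outside the UNTREATED range for both genes. PSMG3, a proteasome assembly chaperone, had 429, 409.7 and 414 CPM in UNTREATED and 328, 334 and 309.8 in COMBO and fell, with a log2 change of -0.37 ± 0.04 (edgeR adjusted p = 2.3e-06). PSMG3-AS1 had 8.79, 10.2 and 8.19 CPM in UNTREATED and 12.3, 10.8 and 11.2 in COMBO and rose by 0.33 ± 0.12 (edgeR adjusted p = 0.029), a call lost without COMBO 1 or UNTREATED 1 or 3 (edgeR adjusted p = 0.081 to 0.11).

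**Figure D4:**
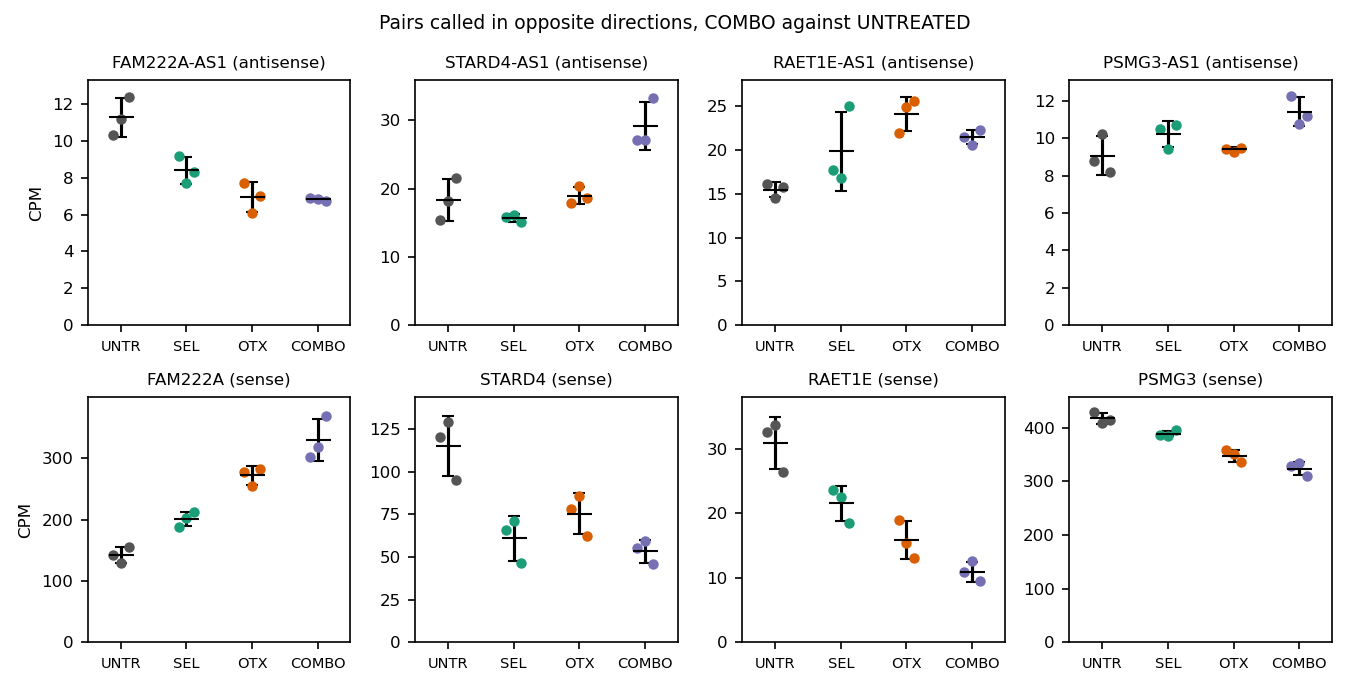
CPM (vertical axes, from 0) of the 4 pairs called in opposite directions, antisense gene above and sense gene below, in the 3 libraries of UNTREATED (UNTR), SEL201 (SEL), OTX015 (OTX) and COMBO, with the mean and 1 SD. COMBO stands above UNTREATED for STARD4-AS1, RAET1E-AS1 and PSMG3-AS1 and for the sense gene FAM222A, and below it for the others.

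With the replicate block the pairs in opposite directions were joined by MZF1-AS1 (-0.49, with 0.24 for MZF1), PAXIP1-AS1 (0.21, -0.15), PRR7-AS1 (-0.20, 0.67), RBM15-AS1 (0.52, -0.10) and ZFHX4-AS1 (-1.34, 0.16). Without it, 1 gene of each of these pairs missed the threshold. Of these sense genes, ZFHX4 had 270.0, 234 and 216 CPM in UNTREATED and 261, 264 and 279 in COMBO and was not called (0.16 ± 0.10, edgeR adjusted p = 0.2). USP2-AS1 and RBM15-AS1 also belong to the 16 pairs in which the antisense gene alone was called, at -0.71 and 0.53. TBX2-AS1 is an example of the 34 in which only the sense gene was. TBX2, a T-box repressor, rose in COMBO by 1.55 ± 0.08 (edgeR adjusted p = 1.3e-09), and TBX2-AS1 had 9.26, 10.1 and 10.2 CPM in UNTREATED, 13.3, 12.9 and 15 with SEL201, 15.5, 10.8 and 12.8 with OTX015 and 12.6, 12.9 and 10.4 with both, and a change of 0.28 ± 0.14 (edgeR adjusted p = 0.11).

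The distance between start sites and the overlap of exons were set beside these directions for the 110 pairs with a known position. Pairs whose starts lay within 1000 bases had the same sign in 27 of 46 cases, and those farther apart in 46 of 64. With exon overlap the signs were the same in 49 of 74 pairs and without it in 24 of 36. By class, same signs were found in 29 of 45 pairs with overlap at the 5′ ends, 19 of 26 at the 3′ ends, 11 of 17 divergent, 10 of 15 inside and 4 of 7 spanning pairs. The Pearson r of the log2 changes was 0.86 across the 17 divergent pairs, which include the ANO1 pair, and Spearman's rho there was 0.59. In the other classes r was 0.37 with overlap at the 5′ ends, 0.49 at the 3′ ends, 0.75 inside and 0.60 spanning. Pairs with starts within 1000 bases had an r of 0.29 and those farther apart 0.65. These counts describe the pairs and were not tested.

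The leading falls with OTX015 alone were those of C1RL-AS1 at -1.28 ± 0.14 (edgeR adjusted p = 3.7e-06), ANO1-AS2 at -1.30 ± 0.14 (edgeR adjusted p = 5.9e-06), SUCLG2-AS1 at -1.17 and PAX8-AS1 at -1.17 on the log2 scale (edgeR adjusted p = 2.3e-04 and 0.0031). Its leading rises were FGF13-AS1 at 0.98, ATP2B1-AS1 at 0.95, PRKAR2A-AS1 at 0.92 and RAET1E-AS1 at 0.64 (edgeR adjusted p = 3.6e-04, 2.4e-04, 4.9e-04 and 0.0012). The OTX015 and UNTREATED libraries did not overlap for these 8, which were picked by the change between the same libraries. Of the 30 rises and 51 falls, 17 and 28 were called in every fit that left out 1 library, and with the replicate block 48 rose and 63 fell, 47.4% against 59.6% of all genes in that fit (29.7% higher, 29.9% lower). In 27 of 113 pairs both genes were called, 22 in the same direction and 5 in opposite ones. The 5 were FAM222A-AS1 (-0.70, FAM222A 0.93), RAET1E-AS1 (0.64, RAET1E -0.97), PRR7-AS1 (-0.34, PRR7 0.54), ATP6V0E2-AS1 (-0.29, ATP6V0E2 0.35) and ARRDC1-AS1 (-0.22, ARRDC1 0.19). COMBO and OTX015 share the UNTREATED libraries, so the same genes leading in both is not independent evidence.

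SEL201 alone changed few antisense genes. ANO1-AS2 (-0.68 ± 0.14, edgeR adjusted p = 0.0037) and C1RL-AS1 (-0.63 ± 0.13, edgeR adjusted p = 0.0038) fell, and both were called whichever library was left out. SUCLG2-AS1 fell, with a log2 change of -0.62 ± 0.19 (edgeR adjusted p = 0.035), a call lost without SEL201 1 or 2 or UNTREATED 1 or 3 (edgeR adjusted p = 0.074 to 0.13). DCST1-AS1 had 8.06, 11.1 and 7.54 CPM in UNTREATED and 5.32, 5.61 and 6.71 in SEL201 and changed by -0.61 ± 0.17 (edgeR adjusted p = 0.024), lost without SEL201 1 or 2 or UNTREATED 2 (edgeR adjusted p = 0.074 to 0.12). The other falls were TRHDE-AS1, NR2F1-AS1, HOXC13-AS, RPARP-AS1, ZNF529-AS1, FAM222A-AS1, RNASEH1-AS1 and TMEM147-AS1 (-0.56 to -0.28). Of the 5 rises, ATP2B1-AS1 changed by 0.52 ± 0.16 (edgeR adjusted p = 0.035), lost without SEL201 2 or 3 or UNTREATED 2 or 3 (edgeR adjusted p = 0.074 to 0.13). TBX2-AS1 rose by 0.48 ± 0.14 (edgeR adjusted p = 0.028), lost without SEL201 1 or 3 or UNTREATED 1 or 2 (edgeR adjusted p = 0.058 to 0.095). OSGEPL1-AS1 rose by 0.35 ± 0.10 (edgeR adjusted p = 0.026), lost without SEL201 1 or 3 or UNTREATED 1 or 2 (edgeR adjusted p = 0.051 to 0.099). SVIL-AS1 rose by 0.25 ± 0.08 (edgeR adjusted p = 0.041), lost without COMBO 1, OTX015 1, SEL201 1, 2 or 3 or UNTREATED 1 or 2 (edgeR adjusted p = 0.054 to 0.13). DLGAP1-AS2 was the fifth (0.17). Of the 12 falls and 5 rises, 5 and 0 were called in every fit that left out 1 library. DLGAP1-AS2 and some of the falls given by name only are thus among the calls lost. ATP2B1-AS1 also lost its call in a fit of the compared groups only (edgeR adjusted p = 0.086), and ATP2B1-AS1 and TBX2-AS1 lost theirs without the 4 libraries numbered 3 (edgeR adjusted p = 0.16 and 0.091).

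Pairing the libraries by replicate number raised the SEL201 counts. With the replicate block 16 antisense genes rose and 24 fell, 17.1% against 37.1% of all genes in the same fit (18% higher, 19.1% lower). PAX8-AS1, at -0.71 with an edgeR adjusted p = 0.083 without the block, was called at 1.9e-09 with it. WT1-AS (-0.31, edgeR adjusted p = 0.065 without and 0.0024 with the block) and FGF13-AS1 (0.41, 0.12 and 0.023) were gained in the same way. Without the block, the number of antisense genes called higher was 5 with all libraries, 3 without COMBO 1, OTX015 1, SEL201 2 or UNTREATED 3, 2 without UNTREATED 1, 1 without SEL201 1 or UNTREATED 2 and 0 without SEL201 3. The number called lower was 12 with all libraries, 7 without SEL201 1, UNTREATED 2 or UNTREATED 3 and 6 without SEL201 2. Both genes were called in 5 pairs. ANO1-AS2, HOXC13-AS, NR2F1-AS1 and TBX2-AS1 moved with their sense genes, and FAM222A-AS1 (-0.42) against FAM222A (0.50).

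Adding OTX015 to SEL201 changed 60 of 234 antisense genes, 26 higher and 34 lower, a share of 25.6% against 40.1% of all genes (18.8% higher, 21.2% lower). ZFHX4-AS1 (-1.07 ± 0.13, edgeR adjusted p = 2.5e-05), C1RL-AS1 (-1.05 ± 0.14, edgeR adjusted p = 4.9e-05), PAX8-AS1 (-1.05 ± 0.28, edgeR adjusted p = 0.0095) and SUCLG2-AS1 (-0.97 ± 0.21, edgeR adjusted p = 0.0018) fell most. STARD4-AS1 rose most, by 0.89 ± 0.13 (edgeR adjusted p = 7.4e-05), followed by FGF13-AS1 at 0.78 ± 0.17 (edgeR adjusted p = 0.0025) and ASB16-AS1 at 0.54 ± 0.09 (edgeR adjusted p = 2.2e-04). SPRY4-AS1, opposite a feedback inhibitor gene of the RAS-MAPK pathway, had 13, 7.91 and 9.70 CPM in SEL201 and 15.5, 12.8 and 16.4 in COMBO. Its groups overlapped, and the rise of 0.54 ± 0.20 (edgeR adjusted p = 0.044) was lost without COMBO 1 or 3, OTX015 2, SEL201 2 or 3 or UNTREATED 1 (edgeR adjusted p = 0.051 to 0.17). Without the 4 libraries numbered 3 its adjusted p was 0.16 in edgeR. The number of antisense genes called higher was 26 with all libraries, 17 without COMBO 1 or SEL201 1 and 16 without COMBO 3. Of the 26 rises and 34 falls, 9 and 22 were called in every fit that left out 1 library. In 20 pairs both genes were called, 19 in the same direction, and the exception was CARD8-AS1 (0.32) with CARD8 (-0.37), an inflammasome sensor gene.

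Adding SEL201 to OTX015 changed 5 of 234 antisense genes, 3 higher and 2 lower, 2.14% against 6.91% of all genes (2.9% higher, 4.01% lower). STARD4-AS1 went from 17.9, 20.4 and 18.5 CPM in OTX015 to 27.2, 27.2 and 33.3 in COMBO, a rise of 0.62 ± 0.12 (edgeR adjusted p = 0.009) that was called whichever library was left out. SLCO4A1-AS1 had 34.5, 33 and 39.8 CPM in OTX015 and 45.9, 48.7 and 58 in COMBO and rose by 0.51 ± 0.12 (edgeR adjusted p = 0.022), lost without COMBO 3 or OTX015 1 or 2 (edgeR adjusted p = 0.079 to 0.09). TSPEAR-AS1 had 4.43, 5.34 and 4.57 CPM in OTX015 and 7.02, 6.61 and 6.62 in COMBO and rose by 0.50 ± 0.14 (edgeR adjusted p = 0.043), lost without any one of the 12 libraries (edgeR adjusted p = 0.051 to 0.14). ZFHX4-AS1 had 9.87, 9.94 and 10.5 CPM in OTX015 and 7.80, 6.57 and 7.48 in COMBO and fell, with a log2 change of -0.47 ± 0.13 (edgeR adjusted p = 0.049), lost without COMBO 1, 2 or 3, OTX015 1, 2 or 3, SEL201 1, 2 or 3 or UNTREATED 3 (edgeR adjusted p = 0.054 to 0.15). FOXD2-AS1 fell, with a log2 change of -0.27 ± 0.07 (edgeR adjusted p = 0.034), lost without COMBO 1, 2 or 3 or OTX015 1, 2 or 3 (edgeR adjusted p = 0.056 to 0.1). The calls of TSPEAR-AS1, ZFHX4-AS1 and FOXD2-AS1 were also lost in fits of the compared groups only (edgeR adjusted p = 0.088 to 0.11) and without the 4 libraries numbered 3 (edgeR adjusted p = 0.15 to 0.17), and that of TSPEAR-AS1 in DESeq2 (adjusted p = 0.057). With the replicate block 8 rose and 13 fell, 8.97% against 22.2% of all genes in the same fit (10.0% higher, 12.2% lower). Among the falls was PAX8-AS1 (-0.58, edgeR adjusted p = 2.0e-06 with the block and 0.26 without). The number of antisense genes called higher was 3 with all libraries and 1 without COMBO 3, OTX015 1 or OTX015 2. The number called lower was 2 with all libraries, 1 without COMBO 3, any SEL201 library or UNTREATED 3, and 0 without COMBO 1, COMBO 2, OTX015 1 or OTX015 3. These counts do not say which genes were called, since without COMBO 3 or OTX015 2 neither ZFHX4-AS1 nor FOXD2-AS1 was among them.

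The interaction takes the log2 changes with each single agent away from the log2 change with both, and it was called for 0 of 234 antisense genes by edgeR, against 0.28% of all genes (0.21% higher, 0.0699% lower). At an unadjusted p under 0.05 there were 12, a threshold that some genes without any interaction also pass. Nothing is read from that count. DESeq2 called 1, STARD4-AS1. In edgeR it had 0.84 ± 0.18 (edgeR adjusted p = 0.064), and it was called with the replicate block (edgeR adjusted p = 3.5e-04) or in the edgeR fit without UNTREATED 1, where it was the 1 antisense gene called. The block also called TRHDE-AS1 (0.39), ATP2B1-AS1 (-0.79), MATN1-AS1 (-0.84) and RAET1E-AS1 (-0.51), 2 higher and 3 lower in all, 2.14% against 6.75% of all genes (4.02% higher, 2.73% lower). For ATP2B1-AS1 the single-agent log2 changes were 0.52 and 0.95 and the COMBO change 0.67.

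A list of 66 symbols covered RNA decay, the ending of transcripts, the U1 ribonucleoprotein and RNA editing. It held some genes under both an old and a new symbol, and 13 of the symbols were in the table. None was called with SEL201, 2 rose and 1 fell with OTX015, 2 rose and 1 fell in COMBO against SEL201, 1 fell in COMBO against OTX015, and 0 were called for the interaction. In the same order the shares called were 0%, 23.1%, 23.1%, 7.69% and 0%, against 21.2%, 48.0%, 40.1%, 6.91% and 0.28% of all genes. In COMBO against UNTREATED 2 rose and 4 fell, 46.2% against 57.8% of all genes. EXOSC7, an exosome subunit, changed by -0.17, and the other 3 measured genes of the exosome group were not called. ZCCHC8 (-0.30) and RBM7 (-0.10), which form the adaptor that brings nuclear transcripts to the exosome, fell. Of the Integrator complex, which ends short transcription, INTS12 rose (0.25) and INTS6 fell (-0.12, edgeR adjusted p = 0.0498). ADARB1, an enzyme that edits adenosines in double-stranded RNA, had means of 237 CPM in UNTREATED and 357 in COMBO and a log2 change of 0.59 (edgeR adjusted p = 2.3e-05). OTX015 alone called INTS12, RBM7 and ADARB1, and what part these genes have in the antisense levels was not tested.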

How the data were processed

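RNA of 12 A375 libraries was measured by stranded poly(A) sequencing with paired 150-base reads, per the labels' protocols. The authors deposited raw counts per gene, and these whole-number counts were used as they stand. Per the submitters' processing notes the tools included STAR 2.5.4b, SAMtools 1.9, featureCounts and DESeq2, and the build was hg19, with no roles stated. Not given in the sources used here are the strand setting of the counting, the gene annotation and any filter by the authors. Mean counts in the table ran from 78.7 to 9159, and genes not in it were not analysed here.

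Testing used the quasi-likelihood F test of edgeR 4.0.16 (R 4.3.3) with TMM scaling, one mean per group and all 12 libraries. The filterByExpr step removed no gene, and p-values were adjusted by Benjamini-Hochberg over 8579 genes at 0.05. The 6 contrasts were each treatment against UNTREATED, COMBO against each agent, and the interaction. Members and lists were chosen with earlier results of these data known. Named genes are the called antisense genes with the 8 largest rises and 8 largest falls in COMBO against UNTREATED, the 4 largest each way in the other contrasts, pairs called in both genes, and a short list of studied antisense genes. Some members enter the counts but are not reported here by name. The edgeR step for COMBO against UNTREATED was tried on simulated counts of independent libraries. Those lack the shared deviations by library number described below, and the other steps were not tried in this way.

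Separate cultures are not stated in the labels, so the p-values cover the spread among these libraries, and that spread may be technical. Within groups, all library pairs differed beyond sampling noise (chi-square over its degrees of freedom at least 6.34). Libraries with the same number deviated together from their group means. Across genes these deviations correlated at 0.27 to 0.58 in the 18 pairs of libraries sharing a number, against -0.47 to 0.20 in 36 pairs that do not. The pairing comes from the data and not the labels, and with the replicate block the biological coefficient of variation went from 7.92% to 4.35%. Tried alternatives were DESeq2 1.42.0, RLE scaling, no filter, a filter of at least 200 counts in every library of a group, the block, fits of the compared groups only, and leaving out libraries.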

Additional observations from a re-analysis of the deposited data

How the results depend on the processing

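For 73 changes of single named genes 1379 values were recomputed: 1279 kept direction and side of the threshold, 98 lost the call, 2 gained one and none reversed. Most of the 73 were picked because they were called in the main fit, so few of them could gain a call. RLE size factors, no filter and DESeq2 changed no count by over 1.5 times except the interaction, where DESeq2 called 1 antisense gene higher in place of 0. With the replicate block SEL201 called 16 higher and 24 lower, OTX015 48 higher, COMBO against OTX015 8 higher and 13 lower, the interaction 2 higher and 3 lower, and 9 pairs in opposite directions. The pairing changed no call of those 73. Since most were called already and the block narrowed the spread, their kept calls are no further evidence. Fits of the compared groups only gave 3 higher for SEL201 and 0 lower for COMBO against OTX015. Without the 4 libraries numbered 3 there were 2 higher for SEL201, 16 higher for COMBO against SEL201 and 1 lower for COMBO against OTX015. Leaving out 1 library gave 0 to 5 higher and 6 to 12 lower for SEL201, 22 to 31 and 34 to 51 for OTX015, 32 to 41 and 45 to 56 for COMBO, 16 to 26 and 23 to 37 for COMBO against SEL201, 1 to 3 and 0 to 2 for COMBO against OTX015, and 0 to 1 and 0 for the interaction. Pairs called in the same direction then numbered 22 to 29 and in opposite directions 3 to 6. Fewer libraries enter these fits, and beyond that the cause was not tested. The filter of 200 counts left 7515 genes and gave no value for 8 results. Antisense genes had a median of 341 counts per library, so small changes of the low ones may go undetected.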
